A study of Mus musculus with 22 samples.

Results

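The comparison was between CD11b+Ly6Chi lung monocytes of SP-CI73T mice 14 d after induction of injury (4 samples) and those 3 d after it (4 samples), with the 4 control samples as the reference level. Members were the protein-coding genes on autosomes whose mean reached 10 CPM (a gene's count scaled to a common library size after TMM normalisation) at 3 d or at 14 d. Of 55421 genes in the count table, 22353 passed the filter on low counts and were tested, 15407 of them were protein-coding and autosomal, and 7676 of those reached the minimum and are called well-expressed here. Of the 7676, 6716 reached it at both times, 261 at 3 d alone and 699 at 14 d alone.

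The mice were adult C57BL/6 animals homozygous for SP-CI73T, a missense form of surfactant protein C, which the alveolar epithelium makes. A tamoxifen-inducible Flp-O recombinase, expressed from the Rosa26 locus, removed a cassette that held the mutant allele at a lower level. Both injured groups carried the mutation and the recombinase and received tamoxifen by gavage. They differed in the time since tamoxifen and, by the *Xist* and Y-linked counts given below, in sex. The controls are labelled as untreated mutants, and the study describes the controls of this sequencing as mutants given oil. Every group carried the mutant allele, uninduced in the controls and induced in both injured groups, and no group was wild type. Lungs were lavaged before digestion, and monocytes were sorted as CD11b+Ly6Chi cells that were negative for SigF, CD64 and CD11c. The labels number the replicates and do not say whether each is a separate mouse, so p-values measure the spread between these samples.

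Ly6Chi monocytes leave the blood for injured tissue, where they lose Ly6C and take on macrophage genes such as those of lysosomes, complement and lipid handling. Resting and recruited monocytes also transcribe interferon-stimulated genes, which type I interferons drive through STAT2 and IRF9 bound to the interferon-stimulated response element (ISRE), and which IRF7 amplifies. In the fibrotic lung, monocyte-derived macrophages are known for osteopontin (*Spp1*), matrix proteases and growth factors.

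Library measures set the 3 d samples apart. They held 15451460 to 20036958 counts and 40119 to 41134 detected genes, against 21131493 to 27013525 counts and 24829 to 32492 genes at 14 d and 24775 to 30865 genes in controls (exact permutation test 14 d against 3 d, two-sided, p = 0.0286 for each, the smallest that 4 against 4 samples allow; 0.0419 adjusted over 22 library measures). The 1756 odorant and pheromone receptor genes, which monocytes are not known to use, gave 0.120 to 0.197 CPM per exonic kb at 3 d, 0.00414 to 0.0392 at 14 d and 0.00426 to 0.0331 in controls. Mitochondrial transcripts took 2.10% to 3.62% of counts at 3 d and 1.23% to 1.79% at 14 d, protein-coding genes 90.9% to 93.4% and 94.7% to 96.7%, and endothelial and stromal markers summed to 57.2 to 67.5 and 23.5 to 38.5 CPM, none with overlap between the times (adjusted exact permutation p = 0.0419 for each), and their part in the results below was not tested. TMM factors also separated the times, at 1.20 to 1.24 at 3 d, 0.882 to 0.993 at 14 d and 0.841 to 0.921 in controls, and with them the scale of every fold change. *Xist* gave 552 to 1217 counts at 3 d, 960 to 4260 in controls and 1 to 6 at 14 d, and Y-linked genes gave 1949 to 3033 counts at 14 d and at most 3 in any other sample, so at 14 d the sex of the mice and the time cannot be told apart.

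Of the well-expressed genes, 2176 (28.3%) were called higher at 14 d than at 3 d and 318 (4.14%) lower, at an adjusted p under 0.05 and a fold change above 1.5 (edgeR's quasi-likelihood test, Benjamini-Hochberg adjusted over the whole tested table). Over all 22353 genes the same rule called 12% higher and 34.5% lower. The 699 genes that reached the minimum only at 14 d gave 350 of the higher calls, the 261 that reached it only at 3 d gave 172 of the lower calls, and those calls follow in part from how the members were chosen. Increases named below that reached it only at 14 d include *Mmp14*, *Syngr1*, *Fcrlb*, *Ccl8*, *Cxcl3*, *Igf1*, *Timp2*, *Mertk*, *Il7r*, *Abca1* and *Pald1*. The balance depended on scaling. With TMM factors taken from the well-expressed genes alone, called the second scaling below, 363 were higher (4.73%) and 739 lower (9.63%), against 2.08% and 42.6% of all genes tested. The share of calls that were higher was 87.2% under TMM, 42.1% by library size, 40.6% by upper quartile and 32.9% under the second scaling, and the median log2 fold change of the 7676 genes was 0.46, 0.072, 0.035 and -0.0033. Genes that passed under all 4 scalings numbered 363 higher and 318 lower, and no gene was called higher under 1 scaling and lower under another. Named genes below passed under both TMM scalings unless their text says otherwise. Counts over gene lists below stand beside these shares of all well-expressed genes, 28.3% higher and 4.14% lower under TMM and 4.73% and 9.63% under the second scaling.

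Each called gene was placed by its control level. A return was a gene called in the opposite direction between 3 d and control and not called between 14 d and control, a new change was called between 14 d and control in the same direction and not between 3 d and control, and a further change was called at both times on the same side of control. For these contrasts the background over all genes tested was 36.8% higher and 14.4% lower at 3 d against control, and 3.22% higher and 5.34% lower at 14 d against control. The 3 contrasts share samples, so the classes describe the levels and are not separate tests. Among genes higher at 14 d, 818 were returns, 248 new, 52 further and 17 overshot the control level, 10 returned in part, and 1031 were unresolved because their contrasts with control gave none of these patterns. Among genes lower at 14 d, 118 were returns, 104 new, 63 further, 7 partial returns and 26 unresolved. The second scaling gave 38 returns, 125 new and 68 further among the higher genes, and 214, 285 and 46 among the lower. Genes in the same class under all 4 scalings were 33 returns, 93 new and 32 further that were higher, and 118 returns, 88 new and 11 further that were lower. A return is the lack of a call and not a measured equality. For 434 of the 818 returns that were higher and 6 of the 118 that were lower, the 95% interval of 14 d against control lay within 1.5 fold.

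**Figure D1:**
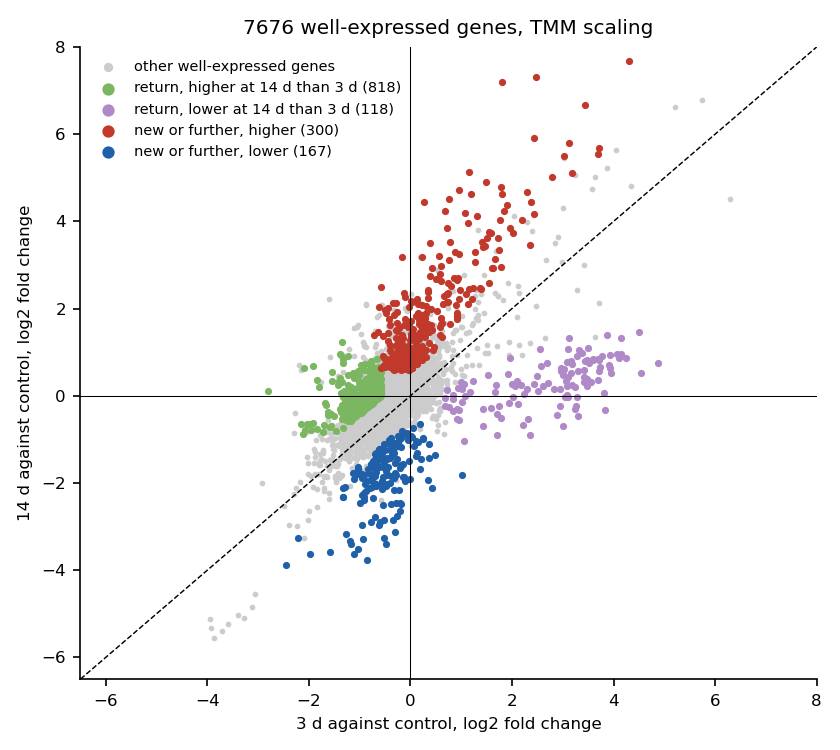
Each point is 1 of the 7676 well-expressed genes, placed by its log2 change from the control samples at 3 d (horizontal axis) and 14 d (vertical axis) under TMM scaling; genes on the dashed line did not differ between 14 d and 3 d. The 818 and 118 returns lie around the horizontal line at 0, and the 300 new or further genes that were higher and the 167 that were lower lie away from it.

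Interferon-stimulated genes fell below the control level, and of the 6 largest new decreases without overlap between the times 4 were among them. Of 53 well-expressed type I interferon-stimulated genes, 50 fell between 3 d and 14 d and none rose, with a median log2 fold change of -1.46 beside 0.46 for all well-expressed genes, and under the second scaling all 53 fell. Relative to control, 34 of the 50 were new and 16 further. Their median log2 fold change from control was -0.52 at 3 d and -1.86 at 14 d, and -0.066 and -1.87 under the second scaling. The 3 that were not called under TMM were *Irf9*, the DNA-binding partner of STAT2 (-0.47 ± 0.14, adjusted p = 0.0144, under the fold minimum), *Sp110* (-0.43 ± 0.14) and *Parp12* (-0.40 ± 0.33).

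*Irf7*, the interferon regulatory factor that amplifies the response, was at 885, 959, 783 and 589 CPM in the control samples and at 355, 462, 692 and 731 CPM at 3 d. At 14 d it was at 119, 104, 97.3 and 129 CPM. Every 14 d sample lay below every 3 d sample, a log2 fold change of -2.32 ± 0.23 (SE; adjusted p = 5.55e-05), or -2.79 under the second scaling. *Isg15*, which encodes a ubiquitin-like modifier, was at 50.4, 70.9, 137 and 98.7 CPM at 3 d and at 16.6, 20.2, 16.1 and 21.5 CPM at 14 d, beside 93.9 to 119 CPM in controls. The 3 d samples of *Isg15* overlapped the controls and the 14 d samples did not (-2.26 ± 0.25, adjusted p = 0.000189). *Rtp4*, a chaperone of receptors that interferon induces, had 140, 172, 263 and 230 CPM at 3 d and 24.7, 26.4, 23.5 and 39.7 CPM at 14 d (-2.81 ± 0.23, adjusted p = 1.39e-05).

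Effectors fell with the regulators. *Ifit1*, which binds foreign RNA ends, went from 24.3, 26.9, 61.1 and 63.3 CPM to 5.47, 5.57, 8.51 and 11.2 CPM, and the 4 samples at 3 d spread over a wider range than those at 14 d (-2.51 ± 0.35, adjusted p = 0.000586). *Usp18*, which removes ISG15 and restrains the interferon receptor, fell by 2.499 ± 0.25 on the log2 scale and *Oasl1*, of the oligoadenylate synthetase-like family, by 2.42 ± 0.18. *Ifit1bl1* (-2.93 ± 0.45), *Ifi213* (-2.74 ± 0.35), *Ifit3* (-2.36 ± 0.45) and *Oasl2* (-2.35 ± 0.27) were of similar size. *Mx1*, a GTPase that blocks viruses (-1.84 ± 0.21), and *Zbp1*, a sensor of Z-form nucleic acid (-1.57 ± 0.14), also fell. *Rsad2*, the antiviral enzyme viperin, was a further change, -0.96 from control at 3 d and -2.97 at 14 d on the log2 scale. It was new under the second scaling. Several of these genes have near-identical neighbours (*Ifit3* and *Ifit3b*, *Ifi213* and *Ifi206*), between which reads may be split in a way these counts do not show.

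The interferon-gamma inducible GTPases, which attack vacuoles that hold pathogens, moved the same way. All 10 well-expressed members fell under both scalings, 7 as new and 3 as further changes, with a median of -1.52. *Ifi47* was at 149, 180, 354 and 383 CPM at 3 d and 57.6, 51.3, 66.6 and 102 CPM at 14 d (-1.94 ± 0.30, adjusted p = 0.000878). *Gbp2*, a guanylate-binding protein, went from 36.9 to 80.3 CPM to 12.4 to 28.6 CPM with no overlap (-1.61 ± 0.28), *Gbp5* fell by 1.72 ± 0.35, *Igtp* by 1.57 ± 0.21 and *Irgm1* by 1.46 ± 0.23 on the log2 scale. *Tgtp2*, an immunity-related GTPase gene, was a further decrease under TMM and new under the second scaling (-2.48 ± 0.39), at 27.7 to 47.3 CPM in controls, 6.09 to 30.8 CPM at 3 d and 2.504 to 4.31 CPM at 14 d.

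**Figure D2:**
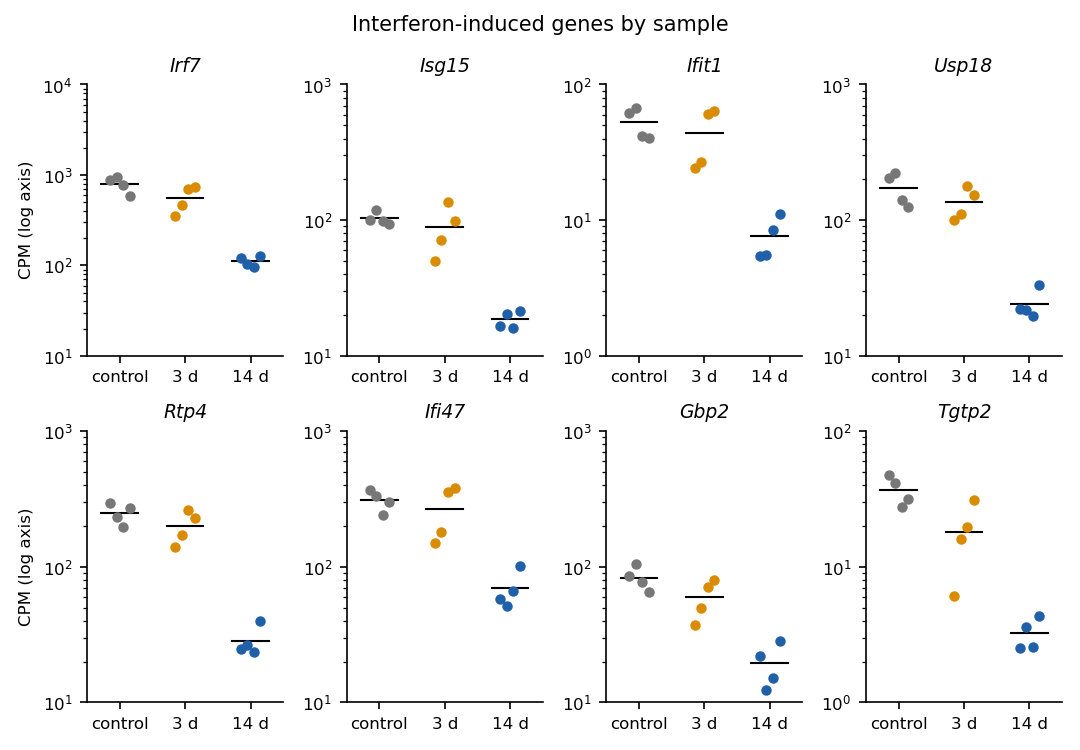
CPM on log axes for 8 interferon-induced genes in each of the 12 samples (points) with group means (bars); in all 8 panels the 4 samples at 14 d lie below the 4 at 3 d and the 4 controls. For *Irf7* the 14 d samples sit between 97.3 and 129 CPM.

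Promoters of these genes are shown because the ISRE, searched as the letters of its paired GAAA repeats 2 bases apart on either strand, is where the interferon-activated factors bind. In the 250 bases before the RefSeq starts (GRCm38.p6), 40 of 134 new or further decreases with a promoter sequence held it (29.9%), against 6 of 243 new or further increases (2.47%), 232 of 6257 well-expressed genes (3.71%) and 894 of 25748 autosomal genes (3.47%). Promoter sequences at the gene's own locus matched 134 of 167, 243 of 300 and 6257 of 7676 genes. By promoter, 2.98% of 31396 held the letters. Of the 53 type I interferon-stimulated genes, 41 had a promoter sequence and 17 held the letters (41.5%). Of the 10 GTPase genes, 9 had a promoter sequence and 8 held them. *Irf7* and *Oasl2* had a promoter sequence without them. Only genes with a match are printed below. No test was made, and a match describes letters, not binding. The lines below give the match in capitals with up to 25 bases on each side, 5′ to 3′ on the gene's strand, where capitals that read TTTC are the motif on the opposite strand.
Ifit1, chr19:34640779-34640838 (+), 75 bases before the start: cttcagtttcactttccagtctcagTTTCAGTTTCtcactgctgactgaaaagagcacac
Isg15, chr4:156200856-156200915 (-), 62 bases before the start: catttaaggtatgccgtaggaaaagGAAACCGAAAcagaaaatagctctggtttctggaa
Rsad2, chr12:26456538-26456597 (-), 110 bases before the start: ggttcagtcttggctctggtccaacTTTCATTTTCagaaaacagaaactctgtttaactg
Ifi213, chr1:173599311-173599370 (-), 63 bases before the start: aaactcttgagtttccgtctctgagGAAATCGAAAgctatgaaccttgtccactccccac
Gbp2, chr3:142620579-142620638 (+), 49 bases before the start: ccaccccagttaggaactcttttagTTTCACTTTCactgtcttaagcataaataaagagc
Igtp, chr11:58199497-58199555 (+), 24 bases before the start: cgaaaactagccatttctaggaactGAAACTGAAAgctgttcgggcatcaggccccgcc
Tgtp2, chr11:49064248-49064307 (-), 60 bases before the start: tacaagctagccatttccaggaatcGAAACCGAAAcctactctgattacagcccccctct
Spp1, chr5:104434929-104434988 (+), 147 bases before the start: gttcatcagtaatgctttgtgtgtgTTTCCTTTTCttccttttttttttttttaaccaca
*Spp1*, shown last, is 1 of the 6 increases that held the same letters.

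Other motifs were counted in the same windows. The E-box CACGTG was in 37 of 243 new or further increases (15.2%), 2 of 134 decreases (1.49%) and 10.9% of well-expressed genes. The AP-1 motif TGANTCA was in 10.7% of the increases, 14.9% of the decreases and 5.75% of well-expressed genes, and the antioxidant response letters TGACNNNGC in 18.1%, 17.9% and 13.9%. Over all autosomal genes the shares were 6.88% for the E-box, 7.88% for AP-1 and 11.7% for the antioxidant letters. By promoter they were 6.02%, 6.77% and 10.3%.

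Class I presentation genes, many of which interferon also drives, depended on scaling. Of 20 well-expressed members 3 fell under TMM and 14 under the second scaling, and none rose under either. The 3 were *Nlrc5*, the class I transactivator (-0.95 ± 0.21, adjusted p = 0.00381), *Tap1*, the peptide transporter (-0.84 ± 0.18), and *Psmb9*, an immunoproteasome subunit (-0.77 ± 0.16). *Tap1* and *Psmb9* share 212 exonic bases on opposite strands. *Cxcl10*, a chemokine that interferon induces, was at 13.2, 16.3, 38.2 and 29.7 CPM at 3 d and 3.48, 13.5, 10.4 and 16.6 CPM at 14 d, and its samples overlapped (-1.15 ± 0.45, adjusted p = 0.0489). It was the only chemokine ligand that fell, and its call was lost with a replicate block and in 9 of the 12 fits that left out 1 sample.

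Genes of the sorted cell's identity moved in different directions. *Ly6c2*, which encodes the sorting antigen Ly6C, was at 2668, 2737, 3459 and 2915 CPM at 3 d and 1790, 1530, 1360 and 1314 CPM at 14 d, while 3 d and control samples overlapped (-0.97 ± 0.13, adjusted p = 0.000547). *Plac8*, a marker of classical monocytes, fell from 1787 to 2735 CPM to 681 to 963 CPM (-1.60 ± 0.15), and *Ms4a4c*, a tetraspan membrane protein gene, by 0.98 ± 0.19 on the log2 scale. In the same list of 19 classical monocyte genes 5 rose, namely *Fn1*, *Sirpb1c* (1.89 ± 0.20), *Vcan*, the matrix proteoglycan versican (1.64 ± 0.23), *Chil3*, the chitinase-like protein Ym1 (1.39 ± 0.24), and *Ccr2*, the chemokine receptor of monocyte egress (0.90 ± 0.35, adjusted p = 0.044). The *Ccr2* call was lost under each of the other 3 scalings and in 7 of the 12 fits that left out 1 sample. Under the second scaling 4 of the 19 rose and 4 fell. *Cd14*, the lipopolysaccharide co-receptor, rose (1.23 ± 0.18), as did *Itgam*, the sorting antigen CD11b (0.63 ± 0.17, and 0.17 with no call under the second scaling), which shares 3450 exonic bases with *Gm49368*.

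Genes of matrix-remodelling, fibrosis-associated macrophages rose, and *Spp1*, *Mmp14*, *Syngr1* and *Cd63* of this list were among the 6 largest new increases without overlap. Of 28 well-expressed members of that list 22 rose and none fell, with a median log2 fold change of 2.34, and 18 rose under the second scaling. By class 12 were new, 3 further and 4 returns. Over all well-expressed genes 28.3% rose under TMM and 4.73% under the second scaling. The list was chosen with earlier results of these data known, so its count is a description and not separate support. *Mmp14* and *Syngr1* averaged 6.94 and 2.13 CPM at 3 d and became members through their 14 d level alone. Their part in the count follows in part from how the members were chosen. *Spp1*, osteopontin, was at 13.5, 81.7, 91.3 and 62.2 CPM in controls, at 166, 17.0, 514 and 165 CPM at 3 d and at 3672, 8343, 14490 and 10070 CPM at 14 d. The lowest 14 d sample was above the highest 3 d sample, a log2 fold change of 5.41 ± 0.99 (adjusted p = 0.00255), the largest increase of the 7676 genes. Within 3 d its samples ran from 17.0 to 514 CPM.

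*Mmp14*, a membrane-bound collagenase, was at 2.15, 5.61, 13.5 and 6.45 CPM at 3 d and at 27.2, 92.5, 165 and 154 CPM at 14 d (3.99 ± 0.79, adjusted p = 0.00297). *Cd63*, a tetraspanin of late endosomes, was at 24.4, 7.45, 143 and 39.1 CPM at 3 d and at 342, 800, 1130 and 626 CPM at 14 d (3.76 ± 0.93, adjusted p = 0.00874). In both genes 3 d replicate 3 was the highest of its group and lay below every 14 d sample. *Syngr1*, a vesicle protein gene (3.76 ± 0.77), and *Fcrlb*, an intracellular Fc receptor-like protein gene (4.17 ± 0.61), were new increases too. *Pdpn*, podoplanin, was a further increase (2.99 ± 0.50). *Ctsl*, the lysosomal protease cathepsin L, rose with a narrow spread, from 74.4 to 115 CPM to 520 to 1010 CPM (2.96 ± 0.21, adjusted p = 3.14e-06), and overlaps *Gm47123* by 1742 exonic bases on the other strand.

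*Fn1*, fibronectin, was at 963 to 1494 CPM at 3 d and 4148 to 6420 CPM at 14 d, above the control samples of 908 to 3402 CPM (2.11 ± 0.33, adjusted p = 0.000932). *Trem2*, a lipid-sensing receptor, rose by 1.66 ± 0.25 on the log2 scale. *Lpl*, lipoprotein lipase, rose by 2.64 ± 0.38 and overshot the control level, a change that was new under the second scaling. *Gpnmb*, a lysosomal glycoprotein gene, rose under TMM (2.63 ± 0.86, adjusted p = 0.026) with overlapping samples and was not called under the second scaling. *Arg1*, arginase, was at 2.53 to 42.1 CPM in controls, at 71.7, 7.18, 672 and 344 CPM at 3 d and at 1691, 3727, 3405 and 2564 CPM at 14 d. Its 14 d samples did not overlap the others, and its call (3.38 ± 1.24, adjusted p = 0.0412) was lost under each of the other 3 scalings, with the replicate block, and in 8 of the 12 fits that left out 1 sample. *Fabp5*, a fatty acid binding protein gene, had a log2 fold change of 1.34 ± 0.57 and was not called.

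**Figure D3:**
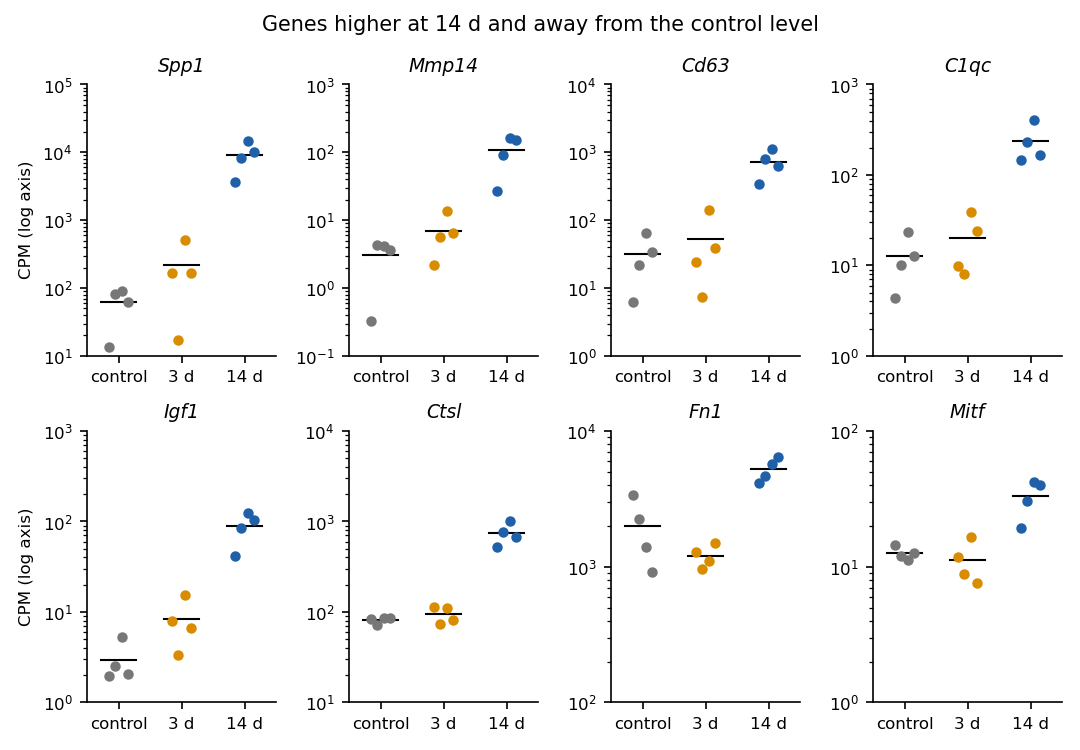
CPM on log axes for 8 genes called higher at 14 d than at 3 d, in each of the 12 samples (points) with group means (bars). The 4 samples at 14 d lie above the 4 at 3 d in every panel, and for *Spp1* they sit between 3672 and 14490 CPM.

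Matrix proteases and their inhibitors rose in 11 of 20 well-expressed members (8 under the second scaling), and none fell. *Timp2*, an inhibitor of metalloproteinases, rose by 2.47 ± 0.39, *Mmp19* by 2.02 ± 0.29, the sheddase gene *Adam8* by 1.80 ± 0.39 and *Mmp8*, a collagenase also stored by neutrophils, by 1.19 ± 0.28 on the log2 scale. *Ctsk*, the collagen-degrading cathepsin K, rose by 2.64 ± 0.76 and was unresolved against control. The summed CPM of 18 neutrophil markers was 1128 to 2392 at 3 d and 1829 to 2881 at 14 d (exact permutation p = 0.229), and its part in the *Mmp8* value was not tested.

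Complement and scavenger receptor genes rose alongside. Of 14 complement genes 9 rose under TMM, and 7 rose and 2 fell under the second scaling. *C1qc*, a chain of the C1q recognition protein, was at 9.83, 8.08, 39.1 and 24.1 CPM at 3 d and at 147, 233, 401 and 167 CPM at 14 d, with controls at 4.39 to 23.4 CPM (3.55 ± 0.62, adjusted p = 0.00187). The other chains *C1qa* (3.45 ± 0.66) and *C1qb* (3.14 ± 0.64), the anaphylatoxin receptors *C3ar1* (2.81 ± 0.58) and *C5ar1* (1.64 ± 0.35) and the integrin gene *Itgax* (2.03 ± 0.55) moved with it. *C5ar1* was a return and *Itgax* was unresolved. Of 21 scavenger and efferocytosis receptors 16 rose (10 under the second scaling) and none fell, among them *Olr1*, a receptor of oxidised lipoprotein (2.67 ± 0.42), *Mertk*, which binds dying cells (2.46 ± 0.56), *Stab1* (2.12 ± 0.41) and *Cxcl16*, both a scavenger receptor and a chemokine (2.10 ± 0.47). *Mrc1*, the mannose receptor, was at 10.04, 6.20, 71.2 and 55.8 CPM at 3 d and 92.0 to 194 CPM at 14 d (2.04 ± 0.65, adjusted p = 0.0222), a call lost under each of the other 3 scalings. Of 7 Fc receptor genes 3 rose and 1 fell (1 and 1 under the second scaling), among them *Fcgr2b*, the inhibitory receptor, which rose (1.41 ± 0.32).

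Chemokine genes and *Igf1* were among the further increases. Of 17 chemokine ligands 11 rose and 1 fell (8 and 1 under the second scaling). *Ccl8*, a chemokine ligand gene, was at 0.122 to 0.807 CPM in controls, at 0.325, 0.808, 5.38 and 1.41 CPM at 3 d and at 51.2, 78.6, 43.8 and 49.3 CPM at 14 d (4.84 ± 0.74, adjusted p = 0.00107). *Cxcl3*, a neutrophil attractant, followed (3.47 ± 0.44), with *Pf4* (3.11 ± 0.30), *Ccl12* (2.66 ± 0.74) and *Cxcl2* (1.72 ± 0.40). *Pf4* is also in the list of erythroid and platelet markers, whose summed CPM was 30.1 to 403 at 3 d and 72.2 to 159 at 14 d. *Ccl2*, the main CCR2 ligand, was at 110, 25.4, 217 and 118 CPM at 3 d and 193, 357, 565 and 322 CPM at 14 d, and its groups overlapped (1.61 ± 0.50, adjusted p = 0.0202, a call lost under the other 3 scalings). *Igf1*, a growth factor for fibroblasts and epithelium, was at 7.96, 3.37, 15.5 and 6.63 CPM at 3 d and at 42.0, 84.9, 124 and 105 CPM at 14 d (3.41 ± 0.49, adjusted p = 0.000719).

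Receptor and cytokine lists lay nearer to the 28.3% of all well-expressed genes that rose under TMM (4.73% under the second scaling). Of 24 chemokine and cytokine receptor genes 9 rose (5 under the second scaling, with 1 lower), among them *Il7r* (2.20 ± 0.61, with overlapping samples) and *Ccr1* (1.265 ± 0.27). *Il1rn*, which encodes the interleukin-1 receptor antagonist and not a receptor, also rose (2.505 ± 0.40). Of 29 inflammatory cytokine and feedback genes 10 rose and none fell, and 6 rose and 4 fell under the second scaling. *Il1a* (2.45 ± 0.50), the feedback inhibitor *Socs3* (1.58 ± 0.33) and, with overlapping samples, *Tnf* (1.49 ± 0.35) passed under both, while *Il1b* (0.87 ± 0.27 and 0.40) passed only under TMM. Of 13 Toll-like receptor and adaptor genes 3 rose, with *Tlr4* (1.201 ± 0.22) as a new increase. Of 16 alternative activation genes 6 rose under TMM and 2 under the second scaling.

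Transcription factor genes of the monocyte to macrophage transition rose in 15 of 35 members under TMM and 6 under the second scaling, and none fell. *Mitf*, a regulator of lysosome genes, was at 11.9, 8.89, 16.4 and 7.53 CPM at 3 d and at 19.4, 30.7, 41.8 and 40.3 CPM at 14 d, with controls at 11.1 to 14.5 CPM, so that every 14 d sample lay above every control and 3 d sample. *Mitf* (1.56 ± 0.27) and *Hif1a*, the oxygen-sensing factor (1.44 ± 0.24), were new. *Id2* (2.13 ± 0.31), *Id3* (1.16 ± 0.23) and *Pparg*, a lipid-responsive nuclear receptor (1.49 ± 0.41), were returns.

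The antioxidant programme driven by NRF2 rose in 12 of 20 members (6 under the second scaling), none fell, and 6 were new. *Slc7a11*, the cystine transporter, was at 12.5, 12.7, 21.4 and 10.4 CPM at 3 d and 42.9, 69.4, 98.4 and 106 CPM at 14 d (2.48 ± 0.32, adjusted p = 0.000407). *Srxn1*, which repairs peroxiredoxins (2.37 ± 0.39), the metal-binding *Mt1* (1.96 ± 0.37) and *Txnrd1*, thioredoxin reductase (1.42 ± 0.31), were new as well. *Hmox1*, heme oxygenase, fell below control at 3 d (121, 107, 138 and 118 CPM against 205 to 274 CPM) and exceeded it at 14 d (364, 376, 550 and 427 CPM). Its log2 fold change between the times was 1.82 ± 0.16 (adjusted p = 2.08e-05), and under the second scaling it was a new increase. Of 15 iron and heme genes 8 rose (3 under the second scaling), and *Fth1*, the ferritin heavy chain, was a return under TMM and unresolved under the second scaling (1.54 ± 0.27).

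Lipid handling genes were among the returns. Of 22 cholesterol efflux and lipid handling genes 14 rose (8 under the second scaling), 9 of them as returns, and none fell. *Apoe*, apolipoprotein E, was at 2360, 5376, 7209 and 3729 CPM in controls, fell to 486, 937, 701 and 545 CPM at 3 d and was at 2496, 4583, 9027 and 4066 CPM at 14 d. The 14 d and control ranges overlapped and the 3 d samples lay below both (2.92 ± 0.42, adjusted p = 0.000862; 14 d against control 0.11 ± 0.39). *Cd36*, a fatty acid transporter and scavenger receptor, was at 80.9 to 291 CPM in controls, at 12.8, 13.7, 55.5 and 62.4 CPM at 3 d and at 90.1, 207, 299 and 360 CPM at 14 d (2.73 ± 0.64, adjusted p = 0.00647). Within 3 d its samples fell into a lower and a higher pair.

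*Plin2*, which coats lipid droplets, was at 236 to 318 CPM at 3 d, 420 to 964 CPM in controls and 575 to 985 CPM at 14 d (1.48 ± 0.25, adjusted p = 0.00113). *Pltp*, phospholipid transfer protein, recovered from 16.05 to 62.5 CPM to 90.2 to 130 CPM and stayed below the controls of 158 to 185 CPM without a call against them (1.37 ± 0.29). *Pon3*, a lactonase gene (2.34 ± 0.31), *Acp5*, tartrate-resistant acid phosphatase (2.30 ± 0.35), *Cd9*, a tetraspanin gene (2.59 ± 0.60), and *Hvcn1*, a proton channel gene (2.60 ± 0.42), were also among the 6 largest returns without overlap between the times. *Pon3*, at 22.5 to 43.6 CPM at 14 d, lay above every control (10.9 to 21.8 CPM), 0.96 higher on the log2 scale (95% interval 0.33 to 1.59) without a call (edgeR adjusted p = 0.0568). *Hvcn1* (1.24, 0.39 to 2.10) and *Acp5* (0.93, 0.22 to 1.64) likewise had intervals against control above 0, as had *Id2* (0.90, 0.26 to 1.55). *Hvcn1* shares 1574 exonic bases with *Tctn1* on the other strand, and it and *Cd9* were unresolved under the second scaling. *Abca1*, the cholesterol efflux pump, overshot, from 11.3 to 18.6 CPM in controls to 5.97 to 9.27 CPM at 3 d and 45.3 to 97.0 CPM at 14 d (2.98 ± 0.26, adjusted p = 2.09e-05), and was a new increase under the second scaling.

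**Figure D4:**
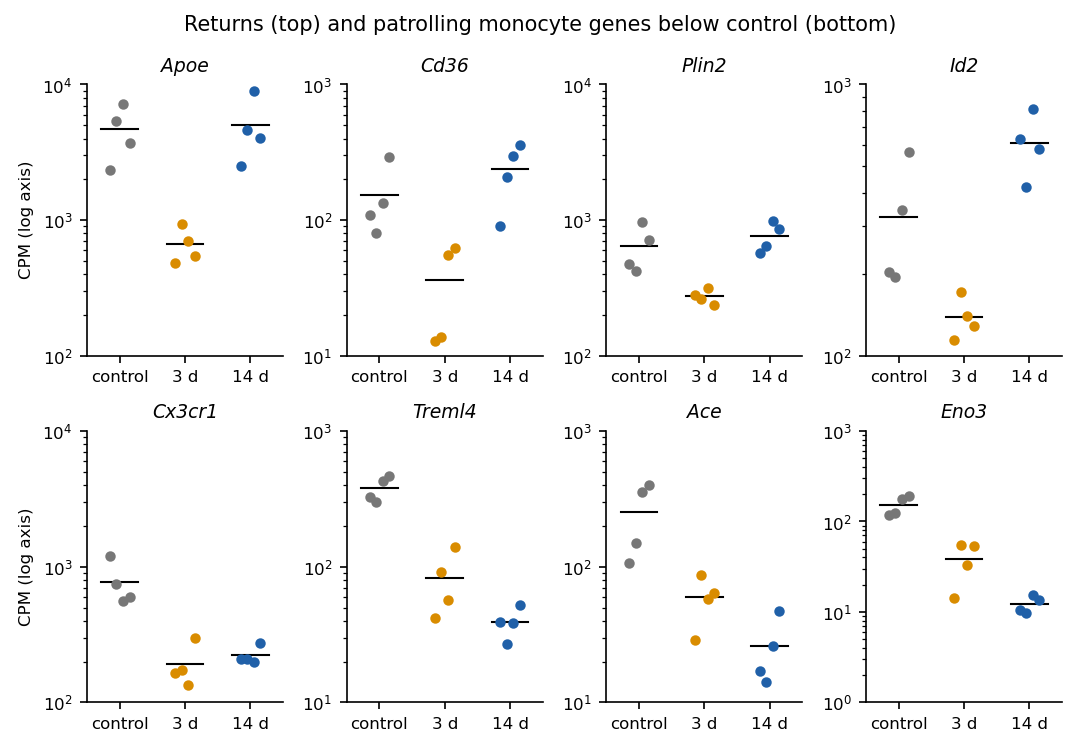
CPM on log axes for 8 genes in each of the 12 samples (points) with group means (bars). In the top row (*Apoe*, *Cd36*, *Plin2* and *Id2*) the 14 d samples lie in or above the control range, and in the bottom row (*Cx3cr1*, *Treml4*, *Ace* and *Eno3*) the samples of both injured groups lie below the 4 controls.

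Of the patrolling monocyte genes, several stayed below control. Of 16 well-expressed members 3 rose (*Cd36*, *Ear2* and *Cebpb*, the last under TMM only) and 2 fell further between 3 d and 14 d, and 2 and 5 under the second scaling. *Treml4*, a receptor of Ly6C-low monocytes, was at 299 to 464 CPM in controls, at 42.0, 90.9, 57.1 and 139 CPM at 3 d and at 39.2, 27.2, 38.5 and 52.2 CPM at 14 d (-1.06 ± 0.31, adjusted p = 0.014), and the injured groups overlapped. *Eno3*, a muscle-type enolase, whose injured groups also overlapped, fell from 118 to 193 CPM in controls to 14.4 to 54.8 CPM and then 9.61 to 15.4 CPM (-1.66 ± 0.34). *Ace*, angiotensin-converting enzyme, was at 28.7 to 87.2 CPM at 3 d and 14.2 to 47.4 CPM at 14 d and was not called under TMM (-1.18 ± 0.49, adjusted p = 0.0618), but was called lower under the other 3 scalings, by DESeq2, with the replicate block and in 3 of the 12 fits that left out 1 sample. *Cx3cr1*, the fractalkine receptor, was at 563 to 1206 CPM in controls, 133 to 298 CPM at 3 d and 199 to 273 CPM at 14 d, and *Nr4a1*, the nuclear receptor these cells depend on, at 1085 to 1782, 222 to 380 and 227 to 436 CPM. Their log2 fold changes between the times were 0.21 ± 0.26 and 0.03 ± 0.23, with a change of sign under the other 3 scalings and no call. Both were called lower than control at 14 d (-1.80 and -2.26). In bulk samples, fewer cells of a type and less RNA per cell cannot be told apart. The summed CPM of 21 NK and T cell markers was 642 to 2769 in controls, 39.4 to 535 at 3 d and 42.3 to 82.0 at 14 d, and its part in these values was not tested.

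*Flt3*, a cytokine receptor gene of dendritic cell precursors, crossed the control level, from 61.2 to 75.1 CPM in controls to 12.3 to 17.6 CPM at 3 d and 81.6, 88.0, 129 and 141 CPM at 14 d (2.90 ± 0.20, adjusted p = 3.14e-06). Class II presentation genes had no such pattern. Of 12 members 3 rose, namely *Lgmn*, an endosomal protease (2.12 ± 0.22), the co-stimulatory *Cd86* (1.31 ± 0.25) and *Ctss*, cathepsin S (1.00 ± 0.15, and 0.54 without a call under the second scaling). *Cd74*, the invariant chain, was at 369, 1814, 1867 and 3034 CPM at 3 d and 2728, 3338, 3326 and 3589 CPM at 14 d, with controls at 4652 to 6805 CPM (0.87 ± 0.43, adjusted p = 0.102). *H2-Aa* (0.75 ± 0.49) and *H2-Ab1* (0.68 ± 0.48), the chains of the class II molecule, were likewise not called, and in each the sample 3 d replicate 1 was far below the others. The 12 dendritic cell markers summed to 351 to 666 CPM at 3 d and 505 to 673 CPM at 14 d.

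Markers of resident alveolar macrophages moved with the increases. Their sum over 20 genes was 4545 to 9326 CPM at 3 d, 16268 to 22453 CPM at 14 d and 9376 to 15700 CPM in controls, of which *Chil3*, a gene of recruited monocytes as well, was 4235 to 8781, 15430 to 20582 and 7022 to 14903 CPM. Without *Chil3* the sum was 310 to 772 CPM at 3 d, 838 to 1871 CPM at 14 d and 797 to 2570 CPM in controls. Of the 12 well-expressed markers 7 rose and none fell, and 6 rose and 1 fell under the second scaling. *Marco*, a defining scavenger receptor of these cells, was at 3.11 to 9.89 CPM at 3 d and 8.72 to 39.1 CPM at 14 d and was not called (1.88 ± 0.83, adjusted p = 0.0751). Every marker had counts in both groups. The gene lists overlap, and 10 of the 20 markers are also in at least 1 of 8 lists described here, such as the scavenger receptor, lipid handling and lysosomal genes. Their part in those increases was not tested.

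Lysosomal genes rose in 36 of 62 members under TMM and in 12 under the second scaling, where 1 fell. The 36 held 16 returns, 5 new and 14 unresolved. *Ctsd*, cathepsin D, was at 687, 413, 682 and 346 CPM at 3 d and 1534, 2114, 3682 and 1563 CPM at 14 d (2.06 ± 0.39, adjusted p = 0.00214). *Atp6v0d2*, a proton pump subunit (2.48 ± 0.76), *Npc1*, which exports cholesterol from lysosomes (1.71 ± 0.34), and *Lamp1*, a membrane glycoprotein (1.43 ± 0.36), passed under both scalings. Of 27 glycolysis and hypoxia response genes 13 rose and 1 fell under TMM and 2 rose and 2 fell under the second scaling, both times with *Hilpda*, a lipid droplet protein of hypoxia (1.76 ± 0.35), and the cytokine *Mif* (1.44 ± 0.24). Of 28 immediate early genes 7 rose under TMM, no more than the 28.3% of all well-expressed genes that rose (4.73% under the second scaling). Of the 7, *Zfp36l1*, which destabilises mRNA (1.77 ± 0.22), alone passed under the second scaling.

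Several lists had few or no members called higher under the second scaling. Over all well-expressed genes 28.3% and 4.73% were higher under TMM and the second scaling, with medians of 0.46 and -0.0033. The second scaling takes its factors from the well-expressed genes, these lists included, so it is not a separate check on them. Of 77 ribosomal protein genes 32 rose under TMM with a median log2 fold change of 0.53, and none rose and 1 fell under the second scaling with a median of 0.089. Of 73 nuclear subunits of oxidative phosphorylation 25 rose under TMM (median 0.47) and none was called under the second scaling (0.026). Of 66 splicing factors 19 and 2 rose (0.51 and 0.049), and of 27 unfolded protein and integrated stress genes 11 rose under TMM, while 2 rose and 2 fell under the second scaling. Of 18 heat shock genes 1 rose under TMM and 3 fell under the second scaling. Of 16 cell cycle genes 3 rose and 1 fell under TMM, and 1 fell under the second scaling. Sterol and fatty acid synthesis had 2 of 23 members higher and 1 lower under TMM and 10 lower under the second scaling. *Fasn*, fatty acid synthase, fell under both (-0.79 ± 0.21, adjusted p = 0.00811).

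**Figure D5:**
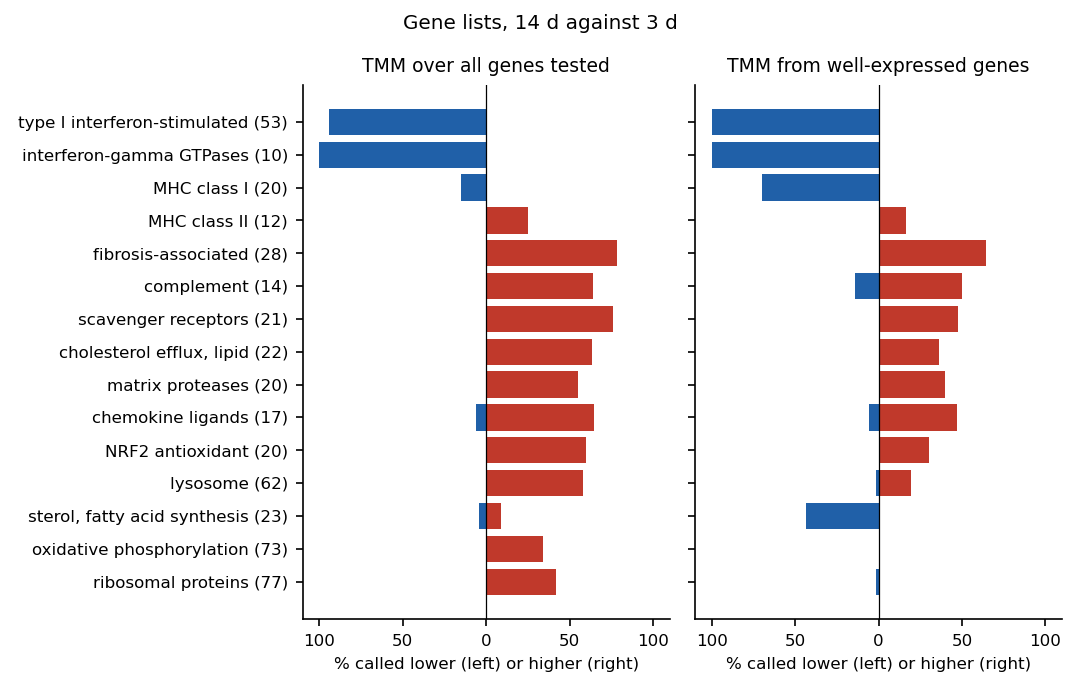
Percent of the well-expressed members of 15 gene lists (number of members in brackets) called lower (blue, to the left) or higher (red, to the right) at 14 d than at 3 d under TMM over all genes tested and under TMM factors taken from the well-expressed genes. Type I interferon-stimulated genes are lower in 50 of 53 and 53 of 53, fibrosis-associated genes higher in 22 and 18 of 28, and ribosomal protein genes higher in 32 and 0 of 77.

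The 118 returns that were lower at 14 d than at 3 d had a median exonic length of 11987 bases, against 4624 for all well-expressed genes, and 83 of the 118 (70.3%) lay under 10 times the CPM that the odorant and pheromone receptor genes would give for their length at 3 d, against 732 of all 7676. *Col5a3*, a collagen gene, was at 8.61 to 12.2 CPM at 3 d and 0.202 to 1.16 CPM at 14 d (-4.16 ± 0.58, adjusted p = 0.000586). *Smok2b* (-4.13 ± 0.90), the brain matrix gene *Tnr* (-3.77 ± 0.58), *Shisal1* (-3.74 ± 0.75) and *Gm10801* (-3.70 ± 1.05) were also among the 6 leading genes. *Col5a3*, *Smok2b*, *Tnr* and *Shisal1* averaged 10.7, 12.7, 12.4 and 10.5 CPM at 3 d and 0.599, 0.723, 0.914 and 0.793 CPM at 14 d. They were members through their 3 d level alone, so their calls follow in part from how the members were chosen. *Gm10801*, with 504 exonic bases and a mean of 93.7 CPM at 3 d, lay at 1263 times that level and *Smok2b* at 37.5 times. The odorant and pheromone receptor level was also higher at 3 d, and its part in these values was not tested. With members limited to the 6944 genes at 10 times that level or more, 35 returns of this kind remained. A minimum of 20 CPM left 18, and 10 CPM over the 12 samples left 21. CPM is not scaled to exonic length, so at a given level per kb long genes reach the minimum more readily, and the median length depends on that choice.

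*Iqgap3*, a scaffold protein gene of cycling cells, returned in part from 10.3 to 16.2 CPM at 3 d to 1.29 to 5.03 CPM at 14 d, with controls at 0.753 to 1.45 CPM (-2.29 ± 0.36). *Igf1r*, the receptor of IGF1, did the same, from 23.1 to 24.8 CPM to 8.46 to 11.4 CPM with controls at 3.87 to 7.12 CPM (-1.27 ± 0.19), as did the procollagen protease gene *Bmp1* (-1.59 ± 0.37). At 3 d *Iqgap3* lay at 8.60, *Igf1r* at 9.74 and *Bmp1* at 8.04 times the odorant and pheromone receptor level, all under 10 times. The part of that level in these values was not tested. *Tnfsfm13* (1.21 ± 0.22), *Prkch* (0.83 ± 0.23) and *Slc41a3* (0.76 ± 0.14) rose part of the way back, and *Prkch* and *Slc41a3* were not called under the second scaling. *Tnfsfm13* is a read-through annotation that shares 983 exonic bases with *Tnfsf13* on the same strand. *Ip6k3*, an inositol phosphate kinase gene (-2.53 ± 0.37), and *Ifi206* (-2.91 ± 0.35) were large further decreases under TMM and new under the second scaling. *Patj*, a polarity scaffold (-2.83 ± 0.45), and *Hsh2d*, a signalling adaptor (-2.55 ± 0.21), were new decreases under TMM and overshot under the second scaling, since their 3 d level was then called above control. *Pald1* overshot under TMM and was new under the second scaling (3.81 ± 0.67). The largest unresolved changes without overlap were *Ahnak2* (2.96 ± 0.70), *Angptl4* (2.75 ± 0.90) and *Rhoc* (2.68 ± 0.65) among the increases and *Cgnl1* (-1.53 ± 0.30), *Afap1* (-1.34 ± 0.35) and *Ralgps2* (-1.23 ± 0.23) among the decreases, and these decreases were returns under the second scaling. At 3 d *Cgnl1*, *Afap1* and *Ralgps2* lay at 9.64, 7.61 and 7.44 times the odorant and pheromone receptor level and *Patj* at 5.24 times. Its part in their values was not tested either. Principal component 1 of the well-expressed genes held 40.6% of the variance and component 2 29.4%, and on component 1 every 14 d sample lay above every 3 d sample. From replicate 1 to 4 the controls lay on component 1 at -42.3, -26.9, 2.21 and 9.20. The 14 d samples lay at 12.6, 37.6, 52.7 and 54.8 in the same order, and the 3 d samples between -45.9 and -14.5.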

How the data were processed

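Lungs were lavaged, perfused and digested, Ly6Chi monocytes were sorted, and libraries were made from oligo(dT)-selected RNA with the NEBNext Ultra kit. The deposited table held raw read counts per gene, which the authors made from paired-end reads; the submitters' processing notes name STAR (2.7.2c and 2.7.3a), featureCounts (1.6.3), DESeq2 (1.26.0 and 1.28.1) and the builds GRCm38 and mm10. The strand setting, the annotation release and whether samples shared a batch are not given in the sources used here. Gene names came from GENCODE M21, which matched 55240 of 55421 IDs.

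The 12 monocyte samples were fitted together in edgeR 4.0.16 (R 4.3.3; filterByExpr, TMM, robust quasi-likelihood) without covariates. The depth was 15451460 to 28789639 counts a sample, and a count of 0 allows up to 3 counts. Samples of a group differed by more than counting error, with a chi-square per degree of freedom of 24.6 to 145. On simulated data for 14 d against 3 d (20445 genes, 200 changed), the test called 39% of 2-fold and 92% of 4-fold changes. Of its calls 4.38% were false, and the second scaling gave the same values. DESeq2 called 66% and 98%, and 23.0% of its calls were false. The share of false calls where the scalings differ, as they did in the samples, was not tested. Alternatives were other scalings, DESeq2 1.42.0, other filters and levels, a replicate block and leaving out each sample. Named genes were, of called genes without overlap between the times, the 6 largest changes among returns and new changes in each direction and the 3 largest of each other class, plus called and defining genes of the lists. Some genes that this rule names are not reported here, and counts over lists include them. Members and lists were chosen with earlier results of these data known. Promoters came from RefSeq (GRCm38.p6) and were used within 10000 bases of the annotated gene. Other cell types of the series were not used here.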

Additional observations from a re-analysis of the deposited data

Results flagged for a closer look

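In 510 groups of 4 samples examined, 26 held a sample that stood apart from its group by Dixon's ratio, and chance alone gives about 1 in 20. Among interferon-induced genes at 14 d, replicate 4 was the highest sample for *Ifit1bl1* (5.80 CPM), *Oasl2* (73.4 CPM), *Usp18* (33.1 CPM), *Irgm1* (93.6 CPM) and *Parp12* (38.4 CPM), and it also stood apart for *Cx3cr1* (273 CPM) and total counts (27013525). At 14 d replicate 3 stood apart for *Mt1* (423 CPM) and *Ctss* (5642 CPM). At 3 d the samples that stood apart were replicate 1 for *Tap1* (152 CPM) and *Hsh2d* (24.5 CPM), replicate 2 for *Ip6k3* (12.4 CPM), replicate 3 for *Acp5* (53.6 CPM) and *Patj* (12.9 CPM), and replicate 4 for *Nlrc5* (46.9 CPM). In 3 d replicate 2 the genes detected (40119) and the summed NK and T cell (535 CPM) and erythroid and platelet markers (403 CPM) stood apart, as did the dendritic cell markers in replicate 4 (666 CPM) and the eosinophil and mast cell markers in replicate 3 (19.8 CPM). Among controls these were *Lpl* in replicate 1 (285 CPM), *Arg1* (42.1 CPM), *Smok2b* (1.45 CPM) and *Bmp1* (1.67 CPM) in replicate 2, *Pf4* in replicate 3 (9.93 CPM) and *Slc7a11* in replicate 4 (27.8 CPM).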

How the results depend on the processing

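Higher and lower calls were 438 and 602 by library size, 363 and 739 with TMM factors from the well-expressed genes, and 439 and 642 by upper quartile. Returns, higher and lower, were then 39 and 208, 38 and 214, and 49 and 193, and new changes 149 and 219, 125 and 285, and 156 and 241. DESeq2 gave 1427 higher calls and 323 returns that were higher. Without the filter on low counts these were 3557 and 2344, with 56 new decreases, and with a test against the 1.5-fold minimum 587 and 97, with 99 new increases. An adjusted p alone gave 1794 higher returns. A minimum of 5 CPM gave 870 lower calls and 567 lower returns, 20 CPM gave 166 and 18, 10 CPM over the 8 samples 200 and 28, and over the 12 samples 204 and 21. Limiting members to 10 times the odorant receptor level left 35 lower returns. Requiring the 95% interval within 1.5 fold of control left 434 and 6 returns, and requiring 14 d to lie within 0.25 of the 3 d distance from control left 535 higher returns. The cause of these shifts was not tested.

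Leaving out 1 sample gave 1474 to 2819 higher calls, 285 to 341 lower calls, 449 to 1218 higher and 113 to 124 lower returns, 113 to 291 new increases and 75 to 140 new decreases. Higher returns were 449 without 3 d replicate 3 and 518 without 14 d replicate 4, and new increases 113 without 14 d replicate 3. *Nr4a1*, called nowhere, changed sign by library size (-0.37), second scaling (-0.45), upper quartile (-0.44), DESeq2 (-0.13) and leaving out 1 sample (-0.27 to 0.20), and *Cx3cr1* by the same 3 scalings (-0.17, -0.26 and -0.24) and without 3 d replicate 3 (-0.012 to 0.52 over the fits that left out 1 sample). With the replicate number as a block, 2050 genes were higher and 319 lower, and 2280 calls were shared between 2369 with the block and 2494 without it. *Arg1* and *Cxcl10* lost their call and *Ace*, *Cd74* and *Fabp5* gained one. Same-numbered samples of the 2 times had correlations of -0.17 to -0.012, and those of 14 d and control 0.089 to 0.52 (3 of 4 best with their own number). Neither met the criterion of every pair over 0.1. From replicate 1 to 4, genes detected were 30865, 30321, 29152 and 24775 in controls and 32492, 31718, 28244 and 24829 at 14 d. Odorant and pheromone receptor counts were 3674, 3533, 2436 and 600 in controls and 4848, 4412, 1532 and 589 at 14 d. Both fell with the replicate number in these 2 groups, and what the numbers stand for was not tested.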
